A study of Mus musculus with 24 samples.

Results

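Prdm6 and 8 relatives that share its PR domain (Mecom, Prdm1, Prdm2, Prdm4, Prdm8, Prdm10, Prdm15 and Prdm16) were followed in RNA-Seq libraries of 2 great vessels of the fetal mouse. The members were the rows of the count table whose Ensembl identifiers carry these symbols, 9 genes of 54752 in the table. The set addresses how far the Prdm6 transcript was lowered by deletion of the gene in neural crest cells, and whether any relative changed with it.

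The ductus arteriosus (DA), the fetal shunt between the pulmonary artery and the aorta, and the ascending aorta were dissected from embryos at E18.5 on a C57/Black6 background. Prdm6-deficient embryos were Wnt1Cre;Prdm6 f/f, in which Cre is made from the Wnt1 promoter and recombines the floxed Prdm6 gene in neural crest cells and their descendants. Controls were mostly Prdm6 wt/f without Cre. Of the 7 control DA libraries 5 carried 1 floxed allele and 2 carried none, and 1 of those 2 also carried Cre, as did the aorta of the same embryo, the 1 control aorta library of 6 without a floxed allele. The Prdm6-deficient groups held 5 DA and 5 aorta libraries, and 2 of these DA libraries were pools of 2 embryos each. Cells of other origin in the vessel wall, such as endothelium, keep the Prdm6 gene in this model. In whole vessel RNA, fewer cells of a type and less RNA per cell cannot be told apart.

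PR-domain (Prdm) proteins carry a PR domain, which is related to the SET domain of histone lysine methyltransferases, usually followed by zinc fingers that contact DNA or other proteins. Some members methylate histones themselves, and others recruit methyltransferases, deacetylases or co-repressors. Prdm6 is known for its selective expression in smooth muscle. Prdm16 and Mecom are close relatives of each other. Prdm16 is known for brown fat, hematopoietic stem cells and the heart, and Mecom for hematopoietic stem cells and endothelium. Prdm1 (Blimp-1) is a repressor that acts in plasma cells and early germ cells. Several of these genes, Mecom, Prdm1, Prdm2 and Prdm16 among them, also make products without the PR domain, and counts per gene do not tell such products apart.

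Expression was deposited as RSEM's expected counts per gene and is given as CPM, the usual scaling of counts to library size, here with TMM normalization factors. Total counts ranged from 15163974 to 22610547, so that 3 counts stood for 0.133 to 0.198 CPM. A gene was called where edgeR's quasi-likelihood test gave a Benjamini-Hochberg adjusted p below 0.01 over the 16463 genes tested and the log2 fold change lay beyond 0.5 either way (1.41-fold). Of the 9 members 8 passed the filter on low counts, and Prdm8 did not. Summed levels of 6 smooth muscle marker genes ran from 13256 to 23282 CPM over the control DA and from 9721 to 11754 CPM over the Prdm6-deficient DA libraries, and from 8464 to 12042 CPM and 9281 to 10963 CPM over the control and Prdm6-deficient aortas, so these markers were abundant in every library, and their sum did not overlap between the genotypes in the DA.

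The promoters of Mecom and Prdm16 are shown because Mecom, though not called, had the lowest adjusted p between genotypes among the relatives of Prdm6, and Prdm16 was the 1 relative among the members called between vessels. They come from RefSeq on GRCm38.p6 and cover 250 bases before to 50 bases after a start site. Of the 9 members and 6 further PR-domain genes described later, 12 had an entry that was used, in 17 windows. Mecom had 2 such windows. The upstream one lies at a start of the long product with the PR domain, and the downstream one at a start of the product without it (EVI1). The upstream window lies at chr3:30509710-30510009 and the downstream window at chr3:30013155-30013454, both on the minus strand, and capitals mark TTTCT or TTTAT on either strand, overlapping matches included, a motif that the study's text gives for Prdm6-bound regions:
Mecom upstream start: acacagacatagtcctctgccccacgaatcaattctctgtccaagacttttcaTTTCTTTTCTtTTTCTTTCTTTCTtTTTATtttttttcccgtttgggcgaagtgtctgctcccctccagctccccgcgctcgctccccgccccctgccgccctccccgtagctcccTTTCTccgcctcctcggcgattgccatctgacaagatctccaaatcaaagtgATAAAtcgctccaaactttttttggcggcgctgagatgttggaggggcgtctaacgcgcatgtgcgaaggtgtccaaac
Mecom downstream start: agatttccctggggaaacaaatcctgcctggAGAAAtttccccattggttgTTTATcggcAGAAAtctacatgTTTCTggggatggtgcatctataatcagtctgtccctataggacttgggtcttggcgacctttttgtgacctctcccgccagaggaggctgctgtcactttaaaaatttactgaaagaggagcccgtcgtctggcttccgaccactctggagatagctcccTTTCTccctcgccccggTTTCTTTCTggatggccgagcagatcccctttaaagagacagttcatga
TTTCT occurred 6 times in each window. TTTAT occurred 2 times in the upstream window and 1 time in the downstream window. Of 32851 promoters of the same length 62.2% held TTTCT and 40.0% held TTTAT at least once, so presence alone did not set these windows apart.

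The single Prdm16 window lies at chr4:154636824-154637123 on the minus strand, and capitals again mark the same letters:
Prdm16 start: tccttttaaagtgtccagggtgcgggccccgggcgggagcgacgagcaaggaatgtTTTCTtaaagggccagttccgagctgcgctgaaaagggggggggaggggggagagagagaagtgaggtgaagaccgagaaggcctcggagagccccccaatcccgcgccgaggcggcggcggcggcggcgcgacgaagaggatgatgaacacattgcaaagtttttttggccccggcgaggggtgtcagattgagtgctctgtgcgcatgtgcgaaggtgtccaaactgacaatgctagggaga
It held TTTCT 1 time and TTTAT 0 times. Its GC content was 61%, against 52% and 49.7% in the upstream and downstream Mecom windows and a median of 52.7% over all promoters. Among the 131 pairs of windows of different family genes, the longest shared run of bases was 24, between Prdm16 and the upstream start of Mecom, and the next longest was 12. The shared run, as far as the windows reach, is printed in capitals:
Prdm16 and Mecom upstream start: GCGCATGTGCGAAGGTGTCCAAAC
It lay within the 50 bases after the start site of each gene. In Mecom it ended at the last base of the window, so the match may be longer than 24 bases. Of all 32851 promoters only these 2 held it.

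Prdm6 itself lies on chromosome 18 (ENSMUSG00000069378.13, mm10, plus strand). Its level was similar in the vessels of control embryos. In control DA it ran from 84.9 CPM over a median of 104 CPM to 128 CPM, and in control aorta from 95.6 CPM over 109 CPM to 135 CPM. The log2 difference between control DA and control aorta was -0.07 (95% confidence interval -0.28 to 0.14, adjusted p = 0.783, edgeR). In CPM Prdm6 stood above 90.3% of tested genes.

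Prdm6 fell in the Prdm6-deficient DA to 58.6, 70.8, 77.7, 78.1 and 78.5 CPM in the 5 libraries. All 5 lay below the lowest of the 7 control DA libraries. The mean level was 72.7 ± 8.50 CPM (SD, n = 5) against 108 ± 16.3 CPM (SD, n = 7), which is 67.5% of the control. The log2 fold change was -0.57 (SE 0.11, adjusted p = 0.000553, edgeR), and an exact permutation test of log2 CPM, two-sided, gave p = 0.00253.

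Prdm6 also fell in the Prdm6-deficient aorta, to 61.9, 68.5, 69.6, 70.0 and 81.2 CPM. These again lay below every control aorta library. The mean was 70.3 ± 6.95 CPM (SD, n = 5) against 113 ± 16.2 CPM (SD, n = 6), or 62.0% of the control. The log2 fold change was -0.69 (SE 0.11, adjusted p = 0.000170, edgeR; exact permutation p = 0.00216). The difference between the 2 effects was 0.12 on the log2 scale (95% confidence interval -0.19 to 0.44, adjusted p = 0.806), so a stronger decrease in either vessel was not shown.

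In the embryos with both vessels sequenced, Prdm6 was lower in the DA than in the aorta in 3 of 6 control embryos. The 2 Prdm6-deficient vessels had almost the same level, with a log2 difference of 0.05 (95% confidence interval -0.19 to 0.29). The transcript was present at 1195 counts or more in every library. Counts per gene do not tell the floxed exons from the rest, so transcripts of the recombined allele cannot be told apart from transcripts of cells without recombination.

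The smooth muscle marker sum fell with Prdm6 in the DA, where 5 of its 6 genes were called lower, while in the aorta 0 of 6 were called and the sums of the genotypes overlapped. Over all tested genes 5.43% were called in the DA and 2.45% in the aorta. The part of smooth muscle content in the Prdm6 result was not tested in either vessel. Of the other marker lists, 6 neuron markers summed to 40.1 to 81.2 CPM in Prdm6-deficient aorta against 18.7 to 29.4 CPM in control aorta, with 1 of the 6 called. Most of that difference was in Elavl4, an RNA-binding protein of neurons, with medians of 35.1 and 4.55 CPM, while Stmn2 had medians of 14.6 and 14.8 CPM and Th and Dbh lay near 0. The 6 macrophage markers summed to 73.0 to 102 CPM against 125 to 231 CPM in the aorta, with 0 called. Sums of the 6 cardiomyocyte and 6 adventitial fibroblast markers overlapped between genotypes in the DA. The sum of 6 Schwann and glial markers overlapped there through control DA replicate 7 alone, at 174 CPM, with the other 6 control DA libraries at 20.5 to 40.7 CPM and the Prdm6-deficient DA libraries at 58.0 to 119 CPM. The part of these cells in the Prdm6 values was not tested.

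The animal numbers fall into 2 runs, with 3 Prdm6-deficient and 2 control DA libraries in the first and 2 and 5 in the second. Within the first run alone the log2 fold change of Prdm6 in the DA was -0.55 (adjusted p = 0.0644) and within the second -0.70 (adjusted p = 0.0104). In the aorta it was -0.85 within the first run, with 1 control library (adjusted p = 0.137), and -0.70 within the second (adjusted p = 0.00528). In these fits the direction held, and the call was lost in 3 of the 4.

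Among the controls, Prdm6 was 104 and 124 CPM in the 2 DA libraries without a floxed allele and 84.9 to 128 CPM in the 5 with 1. In the aorta it was 135 CPM in the library without one and 95.6 to 130 CPM in the 5 with 1. The ranges in the DA overlapped. All controls without a floxed allele belong to the first run of animal numbers and all with 1 to the second, so allele number and run cannot be told apart.

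**Figure D1:**
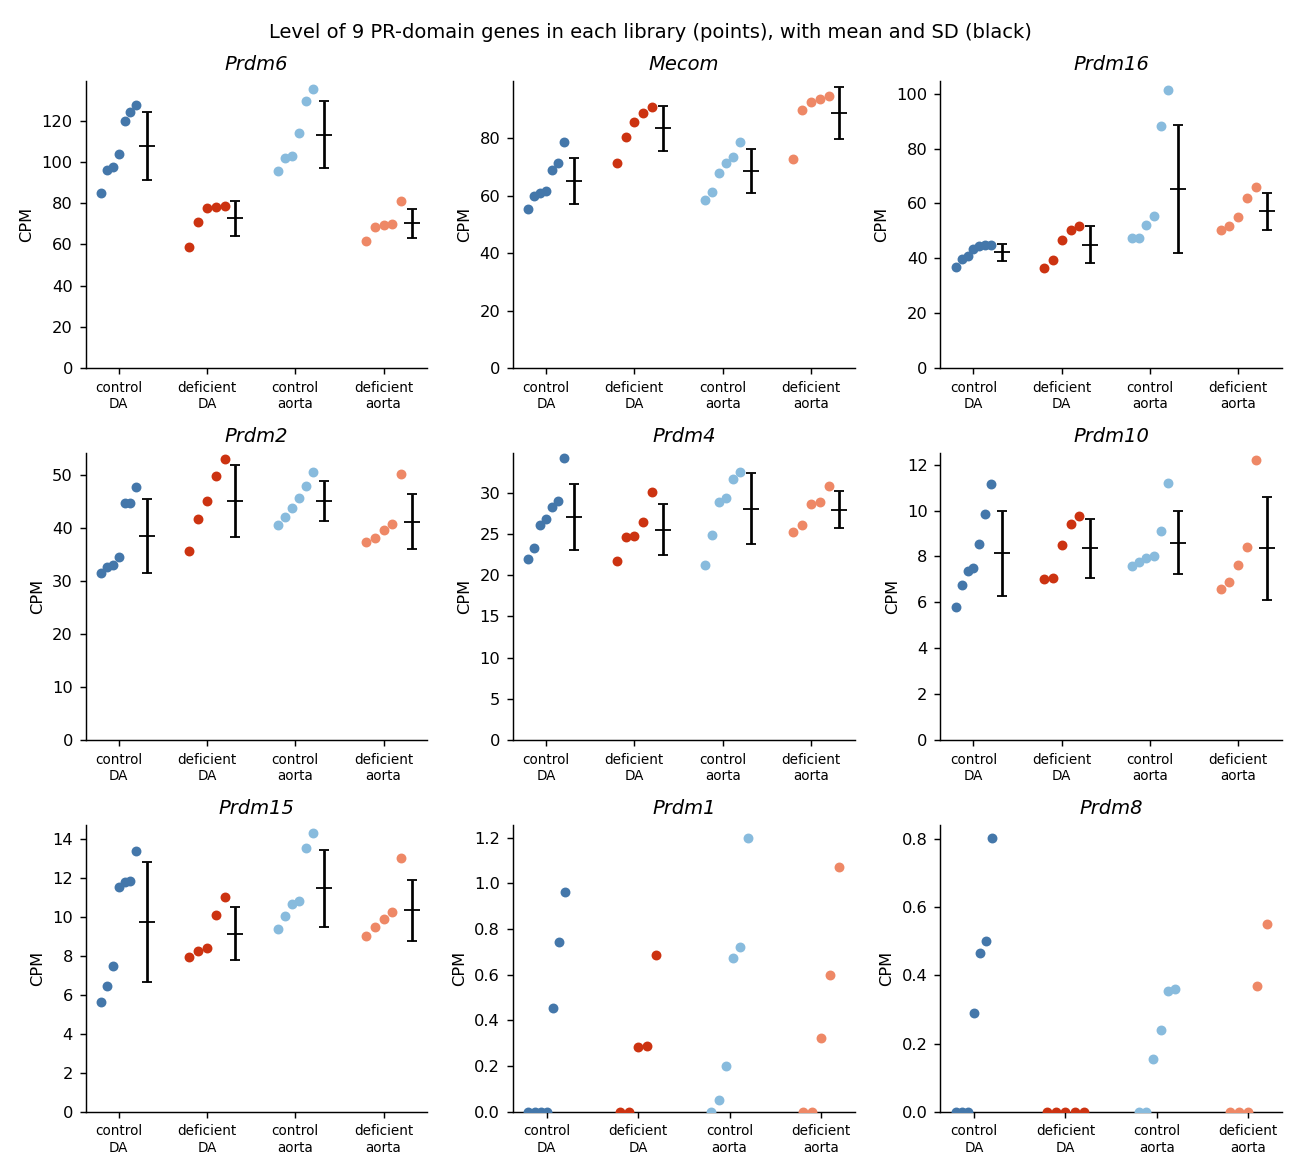
Level of each of the 9 genes in CPM (vertical axes, each starting at 0) in every library (points), by group, with the group mean and SD in black except for Prdm1 and Prdm8, which lay near 0. The Prdm6-deficient libraries, at 58.6 to 81.2 CPM, sit below all control libraries for Prdm6, and 2 control aorta libraries stand above the rest for Prdm16.

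Of the 8 members tested, Prdm6 was the 1 called in the DA, where 5.43% of all tested genes were called, and again the 1 called in the aorta, where 2.45% were. Without Prdm6, 0 of 7 relatives were called in either vessel. The median log2 fold change over the 8 tested members was -0.02 in the DA and -0.14 in the aorta, against 0.01 and -0.00 over all tested genes. Groups that did not overlap were seen for Prdm6 in each vessel and for no other tested member, while over all tested genes 5.66% did not overlap in the DA and 6.95% in the aorta. The difference of the Prdm6 effect between the vessels was called for 0 of 8 members, with 2.58% of all tested genes called.

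Mecom, which encodes the zinc finger protein EVI1 and its longer PR-domain form, had the highest values relative to control among the relatives. Its levels in Prdm6-deficient DA were 71.3, 80.3, 85.8, 88.9 and 90.8 CPM, and in control DA 55.3 CPM at the lowest, 61.5 CPM at the median and 78.6 CPM at the highest. The groups overlapped through 1 Prdm6-deficient library, a pool, that lay below the highest control. Mecom differed by 0.36 on the log2 scale (95% confidence interval 0.16 to 0.55, adjusted p = 0.0110, edgeR), and the exact permutation p was 0.00631.

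In the aorta Mecom was at 72.7, 89.9, 92.6, 93.6 and 94.7 CPM in the Prdm6-deficient libraries. Control aorta ran from 58.6 CPM over 69.7 CPM to 78.9 CPM. All but 1 of the Prdm6-deficient libraries lay above every control, and that 1, replicate 3, lay within their range. This was a log2 difference of 0.37 (95% confidence interval 0.17 to 0.57, adjusted p = 0.0201; exact permutation p = 0.0130). Neither vessel alone passed the adjusted p of 0.01.

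The mean of the effects in the 2 vessels, a contrast chosen after the values were seen, was 0.36 for Mecom (SE 0.07, adjusted p = 0.000364), or 1.29-fold, below the fold used for a call. For Prdm6 the same contrast gave -0.63 (SE 0.08, adjusted p = 1.35e-06), and 4.28% of all tested genes were called in it. Vessels of the same embryos enter this contrast, so its libraries are not all independent. The difference between the vessels was -0.01 for Mecom (95% confidence interval -0.29 to 0.26). Within the first run of animal numbers Mecom differed by 0.46 in the DA (adjusted p = 0.176) and 0.22 in the aorta (adjusted p = 1), and within the second by 0.21 (adjusted p = 0.432) and 0.44 (adjusted p = 0.0542).

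Endothelial markers, which mark cells known to express Mecom, differed by gene and by vessel. The sum of 6 arterial endothelial markers was 291 to 391 CPM in Prdm6-deficient DA against 146 to 236 CPM in control DA, and 262 to 306 CPM against 166 to 257 CPM in the aorta, so the genotypes did not overlap in either vessel. Of these 6 genes 1 was called higher in the DA, where 5.43% of all tested genes were called, and 2 in the aorta, where 2.45% were. Most of the difference in the sum was in Gja4, a gap junction protein, with medians of 150 against 63.2 CPM in the DA and 138 against 70.1 CPM in the aorta. Sox17 was at 23.9 to 31.0 CPM in Prdm6-deficient aorta against 12.0 to 17.8 CPM in control aorta. Lower medians in Prdm6-deficient DA were seen for Bmx (28.0 against 40.9 CPM), Sox17 and Dll4. In the aorta they were seen for Gja5 (38.0 against 54.3 CPM) and Dll4. Ranges overlapped for each of these lower medians. The sum of 6 general endothelial markers overlapped between genotypes, at 845 to 1173 CPM against 671 to 971 CPM in the DA and 759 to 1236 CPM against 574 to 996 CPM in the aorta, with 0 of 6 called in the DA and 2 of 6 called higher in the aorta. Each of the 6 general markers had a higher median in Prdm6-deficient than in control aorta. Emcn there ran from 60.0 to 76.2 CPM against 17.0 to 42.1 CPM. In the DA Kdr had a lower median (17.1 against 19.0 CPM) and the others had higher ones. The part of endothelial cells in the Mecom values was not tested.

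**Figure D2:**
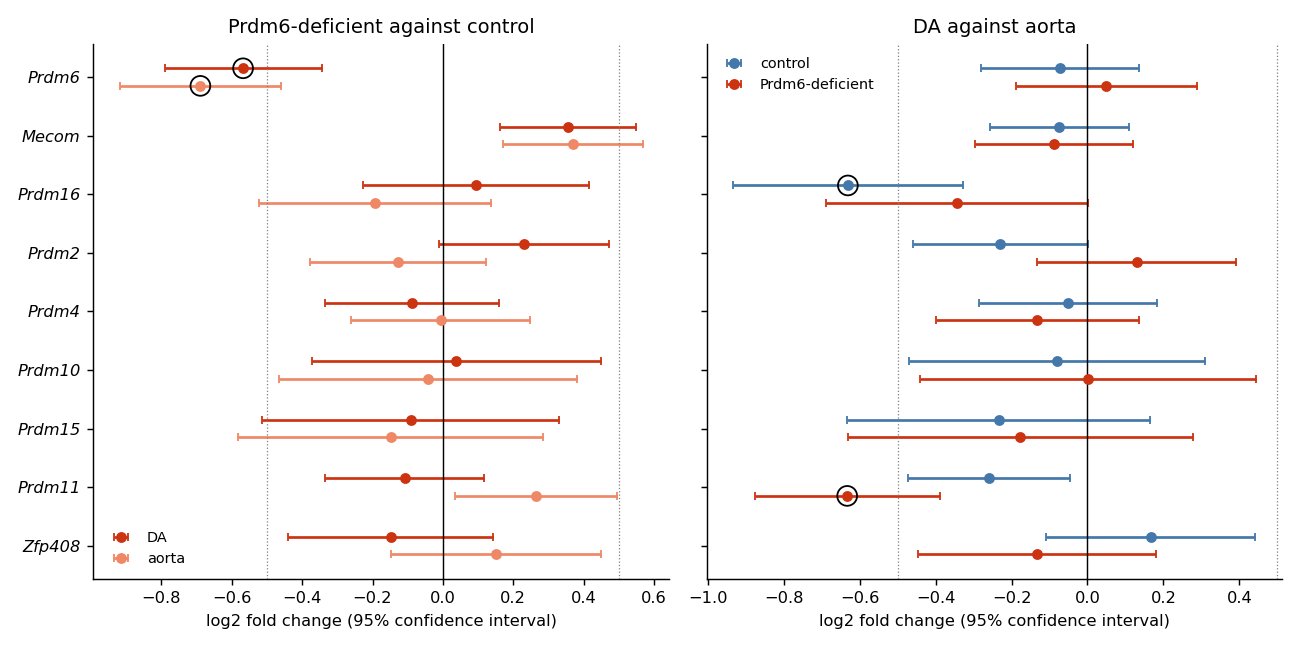
Log2 fold change (horizontal axis) with its 95% confidence interval (bars) for 7 members and 2 further PR-domain genes, between genotypes in each vessel (left) and between vessels in each genotype (right), with called values circled and dotted lines at 0.5 either way. Prdm6 is circled in both vessels at -0.57 and -0.69, Mecom lies at 0.36 and 0.37, and Prdm16 and Prdm11 are circled once each between vessels.

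Prdm16, a transcriptional regulator of brown fat and of the arterial and cardiac lineages, did not pass the test between genotypes. In the DA it was 36.4, 39.5, 46.5, 50.4 and 51.9 CPM in Prdm6-deficient libraries and 36.9 to 44.8 CPM in controls, with a log2 fold change of 0.09 (95% confidence interval -0.23 to 0.41, adjusted p = 0.795). The aorta gave -0.19 (95% confidence interval -0.52 to 0.14, adjusted p = 0.739).

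Prdm16 was the 1 member of 8 called between the vessels of control embryos, where 5.36% of tested genes were called. It was lower in control DA, with a median of 43.5 CPM and a highest value of 44.8 CPM, than in control aorta, with 47.2 CPM at the lowest, 53.7 CPM at the median and 101 CPM at the highest. The groups did not overlap, and Prdm16 was lower in the DA in 6 of 6 control embryos with both vessels sequenced. The share of all tested genes without overlap between control vessels was not counted. The log2 difference was -0.63 (SE 0.15, adjusted p = 0.00393). Control aorta replicates 1 and 6, at 101 and 88.2 CPM, stood above the other 4 control aorta libraries, which lay between 47.2 and 55.3 CPM. Without both the difference was -0.26 (adjusted p = 0.140), without replicate 1 -0.46 (adjusted p = 0.0194), and without replicate 6 -0.53 (adjusted p = 0.0185). It also lost the call without control DA replicate 7 (adjusted p = 0.0104). With the embryo as a block the difference was -0.58 over the 6 control embryos (adjusted p = 0.0252) and again -0.58 over all libraries (adjusted p = 0.00983). It was -0.17 within the first run of animal numbers, with 2 DA libraries and 1 aorta library (adjusted p = 0.948), and -0.71 within the second (adjusted p = 0.0141).

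The Prdm6-deficient vessels differed in Prdm16 by -0.34 (95% confidence interval -0.69 to 0.00, adjusted p = 0.498), and the difference of the differences was 0.29 (adjusted p = 0.623). Of the brown adipocyte markers, Ucp1 stayed at or below 1.47 CPM and Elovl3 at 0 CPM in all 23 libraries. Adipoq reached 29.1 CPM and Plin1 17.8 CPM in control DA, and 8.06 and 4.06 CPM in control aorta. Cidea reached 9.75 CPM in Prdm6-deficient aorta and Cox8b 4.55 CPM in control DA. The sum of 7 such markers, which include Fabp4, a gene of capillary endothelium too, was 173 CPM at the median of control aorta, 155 CPM at the lowest and 226 CPM at the highest, reached in replicate 2, with replicates 1 and 6 at 166 and 209 CPM. Fabp4 alone had a median of 169 CPM in control aorta, so the sum there mostly reflects this gene. Of the 7 genes 2 were called lower in Prdm6-deficient DA, where 5.43% of all tested genes were called.

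**Figure D3:**
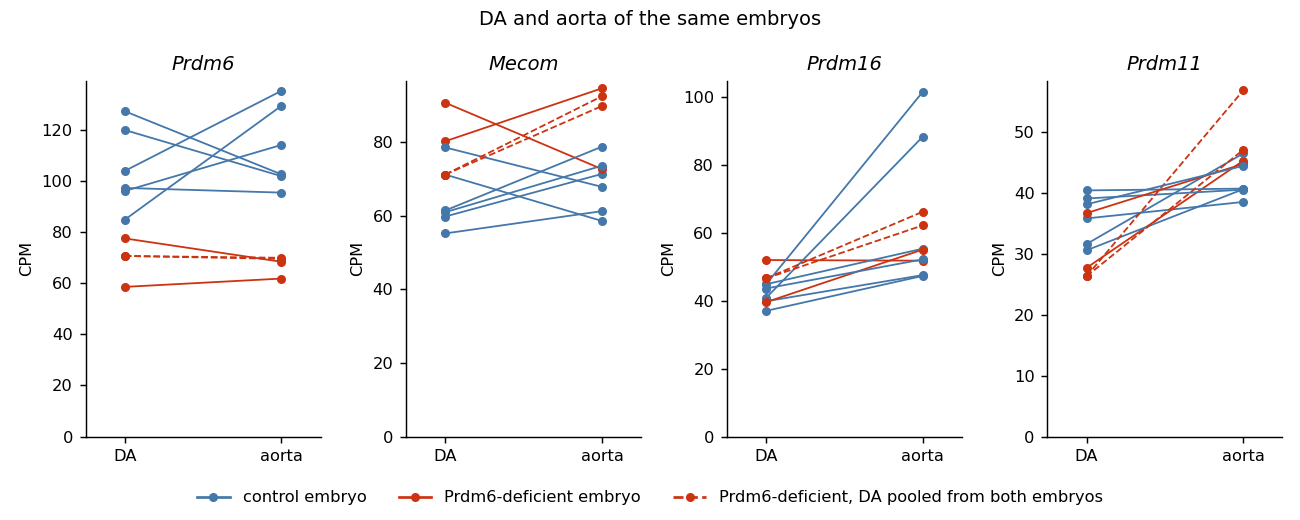
Level in CPM (vertical axes, each starting at 0) of Prdm6, Mecom, Prdm16 and Prdm11 in the DA and aorta of the same embryos, joined by lines, with 6 control pairs in blue and 4 Prdm6-deficient pairs in red. Dashed lines mark a DA library pooled from the 2 embryos whose aortas were sequenced separately. Prdm16 lines rise toward the aorta in all 6 control pairs, most in the 2 that reach 88.2 and 101 CPM, and Prdm11 lines rise in all 10 pairs.

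Prdm2 (RIZ), a histone methyltransferase and tumor suppressor, was 35.8 to 53.2 CPM in Prdm6-deficient DA and 31.6 to 47.8 CPM in control DA, and 37.4 to 50.3 CPM against 40.5 to 50.6 CPM in the aorta. The groups overlapped in each vessel. Prdm2 differed by 0.23 on the log2 scale (95% confidence interval -0.01 to 0.47, adjusted p = 0.239) in the DA and -0.13 (95% confidence interval -0.38 to 0.12, adjusted p = 0.799) in the aorta. The difference between these effects, 0.36, had an unadjusted p of 0.0442 and an adjusted p of 0.292 in edgeR's test.

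Prdm4, which binds the methyltransferase Prmt5 in neural progenitors, was 21.7 to 30.1 CPM in Prdm6-deficient DA against 22.01 to 34.2 CPM in control DA. The log2 fold change was -0.09 (95% confidence interval -0.33 to 0.16) in the DA and -0.01 (95% confidence interval -0.26 to 0.25) in the aorta. As folds these intervals ran from 0.793 to 1.12 times the control in the DA and from 0.834 to 1.19 times the control in the aorta.

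Prdm10 and Prdm15, zinc finger members that act in early development, were the weakest of the well measured members. Prdm10 was 5.81 to 11.2 CPM in control DA and 7.01 to 9.77 CPM in Prdm6-deficient DA, with a log2 fold change of 0.04 (95% confidence interval -0.37 to 0.45). In the aorta its log2 fold change was -0.04 (95% confidence interval -0.47 to 0.38). Prdm15 was 5.63 to 13.3 CPM in control DA and 7.93 to 11.02 CPM in Prdm6-deficient DA, with a log2 fold change of -0.09 (95% confidence interval -0.51 to 0.33), and of -0.15 (95% confidence interval -0.58 to 0.29) in the aorta. A decrease as large as that of Prdm6 in the same vessel (-0.57 and -0.69) lay outside each of these 4 intervals, for Prdm15 in the DA by little.

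Prdm1 and Prdm8 were close to the counting limit. Prdm1 had 0 to 23 counts per library, with more than 3 counts in 13 of 23 libraries, and reached 1.197 CPM in control aorta. It passed the filter, but its 95% confidence interval in the DA ran from -3.13 to 2.53 on the log2 scale, so no difference between genotypes was detectable at this depth. Prdm8 had 0 to 12 counts, with more than 3 in 9 of 23 libraries. In the 5 Prdm6-deficient DA libraries Prdm8 had 0 counts each, while 4 of 7 control DA libraries had more than 3 counts and at most 12. With counts this low neither gene gives a fold change that can be read, and the limits cover counting error only.

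Levels of different genes were compared per kilobase of exon, taking the union of all annotated exons of each gene. Prdm6 was the highest of the 15 PR-domain genes described here in every group. In control DA it stood at 31.0 ± 4.69 CPM per kb (SD, n = 7), and its lowest library, at 24.4 CPM per kb, was above the highest library of the next gene, Prdm4, at 6.96 CPM per kb. Prdm4, Mecom, Prdm2, Prdm16 and Zfp408 followed at 5.52, 5.25, 5.19, 4.52 and 4.34 CPM per kb, and each overlapped the next in its range. Prdm11 (2.05 CPM per kb) lay below Zfp408 with no overlap, and Prdm10 (0.879 CPM per kb) below Prdm11 with none, while Prdm15 (0.857 CPM per kb) overlapped Prdm10. Prdm9, Prdm8, Prdm1, Prdm12, Prdm14 and Prdm13 had 0.305 CPM per kb or less.

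Per kb of exon union, the order after Prdm6 changed with the group. Mecom ranked 3 in control DA and 5 in control aorta, and 2 in both Prdm6-deficient vessels, at 6.71 ± 0.63 CPM per kb in the DA and 7.14 ± 0.73 CPM per kb in the aorta (SD, n = 5 each). Its range overlapped that of the next gene in both. Prdm16 ranked 2 in control aorta at 7.002 ± 2.51 CPM per kb (SD, n = 6) and 5 in control DA at 4.52 ± 0.33 CPM per kb (SD, n = 7). With the length of the longest transcript in place of the union, Prdm6 again ranked first, and Mecom ranked second in all 4 groups, at 11.5 and 12.1 CPM per kb in control DA and aorta and 14.7 and 15.6 CPM per kb in the Prdm6-deficient vessels, so the change of its rank rests on the length used.

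Prdm6 made up 51.4 ± 3.74% of the summed level per kb of the 15 genes in control DA and 40.5 ± 2.98% in Prdm6-deficient DA (SD). In the aorta its share was 49.5 ± 4.02% and 37.3 ± 2.50%. The other 14 genes together summed to 26.8 to 31.6 CPM per kb in control DA and 28.8 to 31.8 CPM per kb in Prdm6-deficient DA, and to 30.7 to 35.6 CPM per kb and 31.4 to 36.7 CPM per kb in the aorta. These ranges overlapped in each vessel. The level of Prdm6 alone was 31.0 and 20.9 CPM per kb on average in control and Prdm6-deficient DA, with no overlap. Shares such as these count transcripts, and the activity of each protein was not measured.

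**Figure D4:**
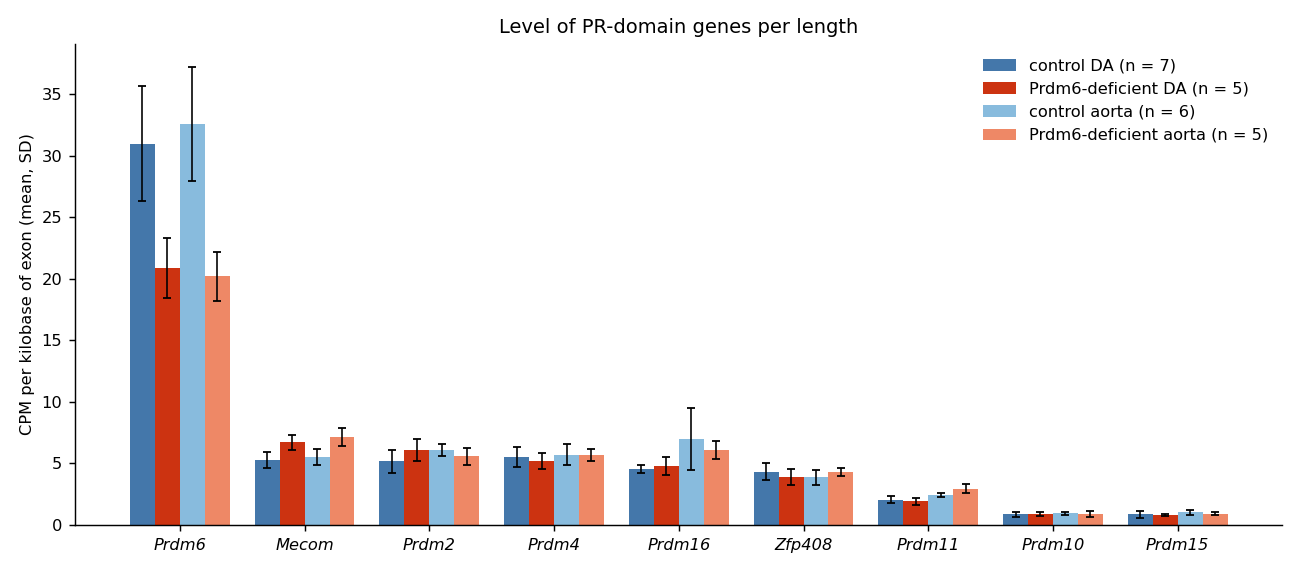
Mean level per kilobase of exon (vertical axis, bars from 0, SD as error bars) of 9 PR-domain genes in the 4 groups. Prdm6 stands above all others at 31.0 and 32.6 CPM per kb in control DA and aorta and 20.9 and 20.2 CPM per kb in the Prdm6-deficient vessels, and no other bar exceeds 7.14 CPM per kb.

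Of the 6 further PR-domain genes described here (Prdm9, Prdm11, Prdm12, Prdm13, Prdm14 and Zfp408), 3 passed the filter on low counts and 0 of these were called between genotypes in either vessel. Zfp408 (PRDM17), known from retinal vessel disease, had log2 fold changes of -0.15 in the DA and 0.15 in the aorta, with adjusted p-values of 0.592 and 0.803. Prdm9, the meiotic recombination factor, had 0 to 66 counts per library, some of which RSEM may have divided with similar zinc finger genes. Prdm12 and Prdm14 exceeded 3 counts in 1 and 3 of 23 libraries, and Prdm13 had 0 counts in all.

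Prdm11, a PR-domain transcriptional regulator, was the 1 family gene called between the Prdm6-deficient vessels, where 0.267% of tested genes were called. It was 26.3, 27.7, 33.0, 36.7 and 38.6 CPM in Prdm6-deficient DA and 44.7, 45.3, 47.1, 56.8 and 57.6 CPM in Prdm6-deficient aorta. The groups did not overlap, though the share of all tested genes without overlap in this comparison was not counted. The log2 difference was -0.63 (SE 0.12, adjusted p = 0.00592), and -0.69 with the embryo as a block (adjusted p = 0.0731), where 11 genes in all were called in place of 44. Without the 2 pooled DA libraries it was -0.55 (adjusted p = 0.0903). In control embryos the same difference was -0.26 (adjusted p = 0.121), with the DA lower in 6 of 6 embryos, and the difference between genotypes in this contrast was not called (-0.37, adjusted p = 0.216). Leaving out Prdm6-deficient aorta replicate 1, 2 or 4 or Prdm6-deficient DA replicate 1, 2 or 5 each ended the call, with adjusted p up to 0.0271.

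Among 18 proteins known to work with Prdm family members (deacetylases, Polycomb subunits, CtBP co-repressors, methyltransferases and acetyltransferases), 1 was called higher in Prdm6-deficient DA, where 5.43% of all tested genes were called, and 0 in the aorta, where 2.45% were. The share called in the list was near that over all genes. The median log2 fold change of the list was -0.11 in the DA and 0.01 in the aorta, against 0.01 and -0.00 over all tested genes. The called gene was Ctbp2, one of the CtBP co-repressors, which bind Prdm16 and EVI1. It was 36.2, 41.3, 48.6, 50.6 and 65.3 CPM in Prdm6-deficient DA and 30.2, 34.1 and 36.7 CPM at the lowest, median and highest of control DA, so that 1 pooled library lay within the control range. The log2 fold change was 0.54 (SE 0.11, adjusted p = 0.000703), and 0.41 (adjusted p = 0.00489) without Prdm6-deficient DA replicate 7, which put it below the fold for a call. Within the 2 runs of animal numbers it was 0.49 (adjusted p = 0.253) and 0.66 (adjusted p = 0.0123), neither called. In the aorta Ctbp2 was 52.1 to 57.1 CPM against 39.4 to 48.1 CPM in controls, with a log2 fold change of 0.28 (adjusted p = 0.180), and in control DA it stood below control aorta by -0.44 on the log2 scale (adjusted p = 0.00320), short of the fold for a call.

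Of Srf and its coactivators Myocd, Mrtfa and Mrtfb, the transcription factors of smooth muscle contractile genes, 1 of 4 was called lower in the DA and 0 in the aorta, with 5.43% and 2.45% of all tested genes called. The called gene was Srf. Myocd had the lowest log2 fold change of the 4 in each vessel, -0.64 in the DA and -0.24 in the aorta, but was not called. The paper lists myocardin among the genes altered by Prdm6 depletion. Srf was 59.6, 62.2, 63.1, 65.6 and 67.8 CPM in Prdm6-deficient DA. Control DA ran from 56.4 CPM over 94.9 CPM to 104 CPM, with 6 of 7 libraries above all Prdm6-deficient ones and replicate 1 below them. Srf differed by -0.51 on the log2 scale (SE 0.12, adjusted p = 0.00625, edgeR; exact permutation p = 0.0152). The call was kept in 13 of 23 fits that left out 1 library each, with adjusted p from 0.000159 to 0.0203. Within the 2 runs of animal numbers Srf differed by -0.62 (adjusted p = 0.0965) and -0.47 (adjusted p = 0.115), neither called. Control DA replicate 1 also had the highest cardiomyocyte marker sum of all libraries, 872 CPM against 12.1 to 395 CPM in the others, and its part in the Srf values was not tested. Of 28 SET-domain methyltransferases, of which 4 also stand in the cofactor list, 0 were called in any of the 5 comparisons. Their median log2 fold change was -0.12 in the DA and -0.03 in the aorta, against 0.01 and -0.00 over all tested genes. By sign 25 were lower and 3 higher in the DA, and 17 lower and 11 higher in the aorta. The list as a whole was not tested.

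The genes whose log2 CPM followed Prdm6 most closely over the 23 libraries, among 12978 compared, were Astn2 (Pearson r = 0.88), Itgb5 (0.85), Cct8 (0.84), Angptl2 (0.84) and Lrig1 (0.84). Those with the most opposite pattern were Etnk1 (-0.88), Barx1 (-0.87), Xylt2 (-0.87), Lum (-0.87) and Rergl (-0.86). These libraries form 2 genotypes, and the measure describes them with that split included. Genes picked this way tend to differ between genotypes by the way they were picked, so their calls are no separate result. Astn2 was -0.90 in the DA and -1.30 in the aorta on the log2 fold scale, Angptl2 -0.59 and -0.71, and Barx1, a homeobox factor, 2.69 and 3.43, all called. Itgb5 (-0.26 and -0.36) and Cct8 (-0.21 in each) were called in neither vessel, and Lrig1 (-0.64 and -0.40) in the DA alone. Over all tested genes 5.43% were called in the DA and 2.45% in the aorta. Lum, which encodes the matrix proteoglycan lumican and belongs to the 6 adventitial fibroblast markers, was 1.44 and 1.61. The list as a whole did not follow it. Of the 6 markers 1 was called higher in the DA, and in the aorta 1 was called higher and 1 lower. Medians in Prdm6-deficient against control aorta were lower for Col14a1 (169 against 471 CPM), Dpt (337 against 608 CPM) and Dcn (291 against 399 CPM). That of Pdgfra was higher (102 against 89.4 CPM), and Pi16 was at 87.2 CPM in both.

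Over the 13 control libraries alone the closest genes were others: Dlgap4 (r = 0.90), Tonsl (0.81), Ess2 (0.81), Eef1d (0.81) and Polrmt (0.81), none of them called between genotypes. Among the family, the r of Mecom with Prdm6 was -0.62 over all 23 libraries and 0.09 over the 13 control libraries. For Prdm16 it was 0.04 and 0.10.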

How the data were processed

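RNA-Seq was performed on the DA and ascending aorta of E18.5 mouse embryos, 23 libraries in 4 groups of genotype and vessel. Replicate 4 of the Prdm6-deficient DA was not analysed here. Per the study's methods, the authors filtered reads on base quality (20 or more in 90% of bases), trimmed adapters with tagdust (false discovery rate 0.001), aligned reads to mm10 with STAR and quantified genes of a GENCODE annotation, called version 20, with RSEM, with default settings and versions not given in the sources used here. The deposited values are RSEM expected counts per gene, estimated counts that are not scaled for depth or length. RSEM divides reads among similar genes, and use of the strand in counting is not given in the sources used here.

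Expected counts were rounded (7.71% of values were not whole) and 0 columns were left unmatched. Of 54752 identifiers, 54723 matched GENCODE M21, which gave symbols, exon lengths and mm10 positions. Promoters came from RefSeq (GRCm38.p6). edgeR 4.0.16 (R 4.3.3) was run with filterByExpr, TMM scaling and the quasi-likelihood test, with 1 mean per group, and p-values were adjusted over 16463 genes by the Benjamini-Hochberg method. Confidence intervals are at 95% and come from this fit. Exact permutation tests used log2 CPM with a prior count of 2. Procedures were tested on simulated data with fold changes larger than that of Prdm6. That test does not show how well changes near the fold for a call are found. DESeq2 1.42.0, other scaling, no filter, blocks, series of animals and leaving out libraries served as alternatives. Tables and plots were made with Python 3.11.15, pandas 2.3.3 and matplotlib 3.10.9.

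The members, the lists of other PR-domain genes, cofactors, SRF partners, SET-domain methyltransferases and cell type markers, and the tests were chosen with earlier results of these data known. Named genes were all members, the other PR-domain genes (1 withheld item is not reported here), list genes called in any comparison, and the 5 genes most and least correlated with Prdm6 over all libraries and the 5 most correlated over control libraries, among genes whose mean log2 CPM was 1 or more. The labels place several DA and aorta libraries in the same embryo, so the embryo was used as a block between vessels. Deviations of same-embryo libraries from their group means had correlations from -0.03 to 0.13 (10 pairs). No source says that libraries within a group came from separate litters, and p-values measure the spread between these libraries. Depth limits and counting floors (3 counts) cover counting error only.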

Additional observations from a re-analysis of the deposited data

Results flagged for a closer look

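Single libraries stood apart from their group in 5 of 45 combinations of a gene and a group that were examined, by the gap to the nearest other library relative to the range of the group (Dixon's test at 95%), and chance alone gives about 1 in 20. Mecom was 72.7 CPM in Prdm6-deficient aorta replicate 3, with the next library at 89.9 CPM. The same library was the lowest of its group for Srf, at 46.5 CPM against 70.6 CPM in the next. Prdm6-deficient aorta replicate 2 stood apart for 2 genes, with Prdm2 at 50.3 CPM above the next library at 40.8 CPM, and with Zfp408 at 14.9 CPM below the next at 17.3 CPM. Srf was 56.4 CPM in control DA replicate 1, below the next control DA library at 84.1 CPM. The effect of Prdm6 deficiency was not called different between the vessels for any of the 11 tested PR-domain genes, Ctbp2 or Srf.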

How the results depend on the processing

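Of 637 values of single genes recomputed under alternatives, 607 kept their side of the call, which includes values that stayed uncalled. The other 30, all of values called in the report, lost the call with the direction kept, and 33 values that were called in neither setting changed sign. Apart from leaving out 1 library, the call of Prdm6 held in 8 of 11 alternatives in the DA and 8 of 9 in the aorta. That of Prdm16 between control vessels held in 6 of 13, and that of Prdm11 between Prdm6-deficient vessels in 4 of 8. In the DA the call held in 7 of 11 for Ctbp2 and 5 of 11 for Srf. Same-numbered libraries of different groups did not deviate together (correlations from -0.10 to 0.20 over 19 pairs), so replicate numbers were not taken as pairs. With the 2 compared groups alone and the number as a replicate block, 455 genes were called in the DA, 538 between control vessels and 14 between Prdm6-deficient vessels, against 611, 789 and 83 in the same fits without the block and 894, 882 and 44 in the fit of all groups. Prdm6 in the DA had a log2 fold change of -0.55 and an adjusted p of 0.0267 with that block, and -0.57 and 0.00310 without it. With the embryo as a replicate block over all libraries, 11 genes were called between Prdm6-deficient vessels and 239 for the difference of the effects, in place of 425. With the 2 compared groups alone and no block, 702 genes were called in the aorta in place of 404. DESeq2 called 134 and the fit without the pooled libraries 15 between Prdm6-deficient vessels. Within the first run of animal numbers 201 genes were called in the DA, 7 in the aorta and 20 between control vessels, and within the second 419 in the DA and 226 in the aorta. These fits hold fewer libraries. Leaving out 1 library at a time gave 784 to 948 calls in the DA, 325 to 441 in the aorta, 775 to 963 between control vessels, 22 to 58 between Prdm6-deficient vessels and 359 to 490 for the difference. The count of 22 came without Prdm6-deficient aorta replicate 2, and counts of 25 to 29 without replicates 1, 4 or 5 of that group or 1 or 2 of Prdm6-deficient DA. Per length of the longest transcript, control DA levels were 41.0 CPM per kb for Prdm6, 11.5 for Mecom, 6.84 for Prdm4, 4.90 for Prdm16, 1.53 for Prdm15 and 1.202 for Prdm10. Where no construction is named, the cause was not tested. Counts of Prdm1, Prdm8 and Prdm9 were too low to show a difference.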
